A study of Drosophila melanogaster with 17 samples.

Results

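Mdr65, Mdr49 and CG10226 are ABC transporter genes of Drosophila melanogaster that the platform annotation names by these symbols, and they were taken here by symbol, with every probe set of each. Each had 1 probe set among the 13290 of the series matrix, so the results below concern 3 of the 8938 genes that carried a symbol of their own. All 3 genes passed the submitters' filter, which left 13290 of 18769 probe sets. Their proteins belong to the ABCB subfamily of ATP-driven transporters, the subfamily of the mammalian multidrug efflux pump P-glycoprotein. How near these genes are to each other in sequence was not measured. In the annotation used for gene order, CG10226 and Mdr65 lie next to each other on chromosome arm 3L with 0 annotated genes starting between them, and Mdr49 lies on 2R.

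In the fly the blood-brain barrier is a sheet of surface glia sealed by septate junctions, which keep solutes of the blood from passing between the cells. Efflux pumps in the same cells return lipophilic drugs and toxins that cross the membranes. Mdr65 is known as such a pump of the surface glia, and Moody is a G protein-coupled receptor of these cells that keeps the junctions tight. Mdr49 is known for its part in guiding the germ cells of the fly embryo.

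RNA of whole adult brains was measured on 17 Affymetrix arrays, each holding amplified RNA of 4 brains from females and males. The 5 groups were C17, a null mutant of moody (3 arrays), PMdr65, a null mutant of Mdr65 (3 arrays), WT_new and WT_old, which are new and old sets of Canton S wild type (3 and 5 arrays), and UAS_control, a line labelled UAS-Mdr65-RNAi (3 arrays). The labels name no driver that would switch on this RNA interference construct, and the series text describes the line as a control of a background similar to that of the mutants. WT_new was processed on another day than both mutants, per the series text. The labels call the flies adult without giving an age, and each mutant gene is represented by 1 mutant line. They do not say whether replicate arrays derive from separate cultures, so the p-values reflect array-to-array spread only, and the small number of arrays bounds their precision. In whole brains, fewer cells of a type and less RNA per cell cannot be told apart.

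All values are log2 signals after RMA, a normalization that summarises the probes of a gene on each array. A gene was called where limma, fitted over all 13290 probe sets and 17 arrays, gave an adjusted p under 0.05, and it was taken as changed in a mutant where the call had 1 direction against all 3 control groups. Of the 5 neuronal markers listed, 4 were measured, and their array means lay between 12.00 and 12.27 on all arrays. Transcripts of other tissues varied more between groups. The mean of 5 fat body markers was 6.89 to 7.90 on the WT_old arrays and 9.43 to 11.46 on the other arrays. The mean of 2 eye markers was 6.49 to 7.27 in C17, PMdr65 and WT_old, 7.66 to 11.45 in WT_new and 10.29 to 11.43 in UAS_control. Array medians lay between 7.86 and 7.99.

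In the Mdr65 null the signal of Mdr65 itself was dim, at 4.65 to 4.72. The adjacent gene CG10226 was higher there, and rose against each control group. Mdr49 did not move in 1 direction. In the moody null, Mdr65 and CG10226 were both higher than in either wild type set, but not called against UAS_control. Against all 3 control groups, 1 of the 3 genes rose and 1 fell in PMdr65, and 0 were called in C17, also at an unadjusted p under 0.05 (limma). The same rule called 5.53% of all probe sets higher and 2.81% lower in PMdr65, and 4.42% higher and 2.03% lower in C17. By comparison, C17 had 2 of the 3 genes higher and 0 lower against WT_new (25.2% and 15.8% of all probe sets), 3 higher and 0 lower against WT_old (10.3% and 9.32%), and 0 in either direction against UAS_control (26.2% and 16.9%; 0 higher and 1 lower at an unadjusted p under 0.05, limma). PMdr65 had 1 higher and 2 lower against WT_new (23.9% and 17.6%), 2 higher and 1 lower against WT_old (13.3% and 15.6%), and 1 higher and 2 lower against UAS_control (23.0% and 16.5%).

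**Figure D1:**
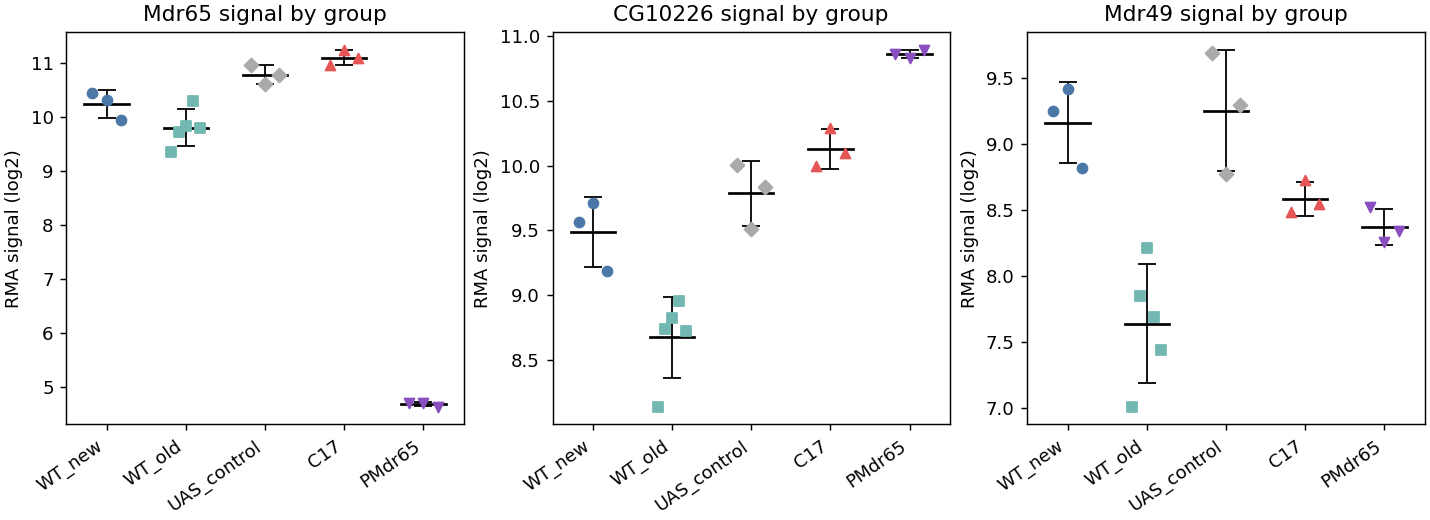
RMA signal (log2) of Mdr65, CG10226 and Mdr49 on each of the 17 arrays, by group; each symbol is 1 array, the long bar is the group mean and the error bar the SD (n = 3, and n = 5 in WT_old). The PMdr65 arrays lie between 4.65 and 4.72 for Mdr65 and between 10.83 and 10.89 for CG10226, below and above all other arrays, and the axes of the 3 panels differ.

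The signal of Mdr65, the targeted gene of PMdr65, was 4.71, 4.72 and 4.65 on the 3 PMdr65 arrays. For scale, probe sets that the series matrix leaves out had a median mean signal of 4.04, and moody read 2.17 ± 0.11 (SD, n = 3) in C17, its own null. Mdr65 in PMdr65 was above both, and what its remaining signal reflects was not tested. On the WT_new arrays Mdr65 stood at 10.45, 10.31 and 9.94, and on the UAS_control arrays at 10.96, 10.61 and 10.77. The 5 WT_old arrays ranged from 9.35 through a median of 9.80 to 10.30. The mutant thus lay far below every control array, as its label states. Mdr65 fell by 5.54 against WT_new, by 5.11 against WT_old and by 6.09 against UAS_control on the log2 scale (SE 0.16 to 0.18), or 34.5- to 68.2-fold (limma, highest adjusted p = 1.39e-11). These folds are approximate, since the mutant signal is dim.

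In C17 the Mdr65 signal was 10.95, 11.23 and 11.10. All C17 arrays were above every wild type array, and 2 of the 3 were above all 11 control arrays, since the highest UAS_control array, at 10.96, lay just over the lowest C17 array. All arrays lay above all control arrays in C17 for 6.95% of probe sets and below them for 3.49%, a rule that Mdr65 did not meet. The share of probe sets with all C17 arrays above every wild type array was not computed. The mean of C17 was 11.09 ± 0.14 (SD, n = 3), against 10.23 ± 0.26 (n = 3) in WT_new, 9.80 ± 0.34 (n = 5) in WT_old and 10.78 ± 0.18 (n = 3) in UAS_control. Mdr65 therefore rose by 0.86 over WT_new (SE 0.18; limma, adjusted p = 0.00165), in a comparison where 25.2% of all probe sets were called higher. Over WT_old it rose by 1.29 (SE 0.16; limma, adjusted p = 4.31e-05), where 10.3% were called higher. The difference of 0.31 from UAS_control was not called, and its 95% confidence interval ran from -0.08 to 0.70 (limma, adjusted p = 0.178, with 26.2% of probe sets called higher). Pooling the 11 control arrays, the C17 mean was 0.91 higher (exact two-sided permutation test over arrays, p = 0.014, adjusted p = 0.028 over 6 tests of 3 genes in 2 mutants). The pooled test takes the control groups as alike, which they were not for any of the 3 genes. The 6 tests include Mdr65 in its own null, an outcome known in advance that makes the other low adjusted p-values smaller.

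The order of Mdr65 levels was C17, UAS_control, WT_new, WT_old and PMdr65. Neighbours in this order were not called apart for C17 and UAS_control, nor for UAS_control and WT_new, which differed by 0.55 (95% confidence interval 0.16 to 0.94; limma, adjusted p = 0.0545). Between UAS_control and WT_new 0 of the 3 genes were called (0.0545 was the lowest adjusted p; 1 higher and 0 lower at an unadjusted p under 0.05, limma), beside 7.51% of probe sets higher and 7.65% lower. WT_old was lower than WT_new by a difference of -0.43 (limma, adjusted p = 0.041, where 17.1% of probe sets were called lower and 28.3% higher). That call was lost without WT_new array 1 or 2, WT_old array 1, 2, 3 or 5, C17 array 3 or any single PMdr65 array (limma, adjusted p = 0.0502 to 0.174), and when only both wild type sets were fitted (adjusted p = 0.102). UAS_control was 0.98 above WT_old (limma, adjusted p = 0.000152, where 22.2% were called higher and 33.2% lower). The line carrying the construct against Mdr65 thus had the highest Mdr65 mean of the 3 control groups.

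CG10226 stood at 10.86, 10.83 and 10.89 on the PMdr65 arrays, which were within 0.06 of each other. Its WT_new arrays read 9.57, 9.71 and 9.19, its UAS_control arrays 10.01, 9.51 and 9.84, and its WT_old arrays from 8.14 through a median of 8.74 to 8.95. All 3 PMdr65 arrays were above all 14 other arrays, with no overlap. CG10226 rose by 1.37 over WT_new (SE 0.18, 2.58-fold; limma, adjusted p = 3.76e-05, with 23.9% of all probe sets called higher). The rise over WT_old was 2.18 (SE 0.16, 4.54-fold; limma, adjusted p = 1.62e-07, with 13.3% called higher) and that over UAS_control 1.07 (SE 0.18, 2.10-fold; limma, adjusted p = 0.000405, with 23.0% called higher). By size of rise it ranked 126, 32 and 97 among the 13290 probe sets in these 3 comparisons. Pooled over the 11 control arrays the difference was 1.66 (exact two-sided permutation test, p = 0.0027, the smallest these arrays can give, adjusted p = 0.0081). The same limits hold, since CG10226 also differed between the control groups and the adjustment includes the test of Mdr65 in its own null. All PMdr65 arrays lay above all control arrays for 7.04% of probe sets and below them for 4.26%. The share above all 14 other arrays was not computed.

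CG10226 was also high in C17, with 9.99, 10.29 and 10.10, though below PMdr65. Its mean of 10.13 ± 0.15 (SD, n = 3) was 0.64 above WT_new (SE 0.18; limma, adjusted p = 0.0117) and 1.45 above WT_old (SE 0.16; limma, adjusted p = 1.5e-05). The call against WT_new was lost without C17 array 2 (adjusted p = 0.0521) or WT_new array 3 (limma, adjusted p = 0.0592). Against UAS_control the difference was 0.34, with a 95% confidence interval from -0.05 to 0.73, and was not called (limma, adjusted p = 0.143). Without UAS_control array 2 it was 0.21. Both Mdr65 and CG10226 thus had the same calls in C17, higher against each wild type set and not called against the line of similar background.

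Between the mutants CG10226 was lower in C17 than in PMdr65 by a difference of -0.73 (95% confidence interval -1.12 to -0.34, SE 0.18; limma, adjusted p = 0.0236). Mdr65 was the 1 transporter called higher in this comparison, which called 3.98% of all probe sets higher and 3.07% lower. The groups did not overlap, but the share of all probe sets without overlap between the mutants was not computed. The call was lost when C17 array 1 or 3 or any single PMdr65 array was left out, with differences of -0.75 to -0.66 (limma, adjusted p = 0.0669 to 0.104). The full order of CG10226 levels was PMdr65, C17, UAS_control, WT_new and WT_old. In that order C17 and UAS_control were not called apart, nor were UAS_control and WT_new (difference 0.30, 95% confidence interval -0.09 to 0.69; limma, adjusted p = 0.309), while WT_old was lower than WT_new by a difference of -0.81 (limma, adjusted p = 0.0011).

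Mdr49 had no level common to the control groups against which a mutant could be set. Its signal was 9.25, 9.42 and 8.82 in WT_new and 9.69, 8.77 and 9.30 in UAS_control, but 7.01 to 8.21 with a median of 7.69 in WT_old. The mutants lay between these levels, with 8.52, 8.25 and 8.34 in PMdr65 and 8.48, 8.73 and 8.54 in C17. No array of a mutant reached the lowest WT_new or UAS_control array, and none was as low as the highest WT_old array. The share of all probe sets apart in this way was not computed, so this is no result about Mdr49.

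**Figure D2:**
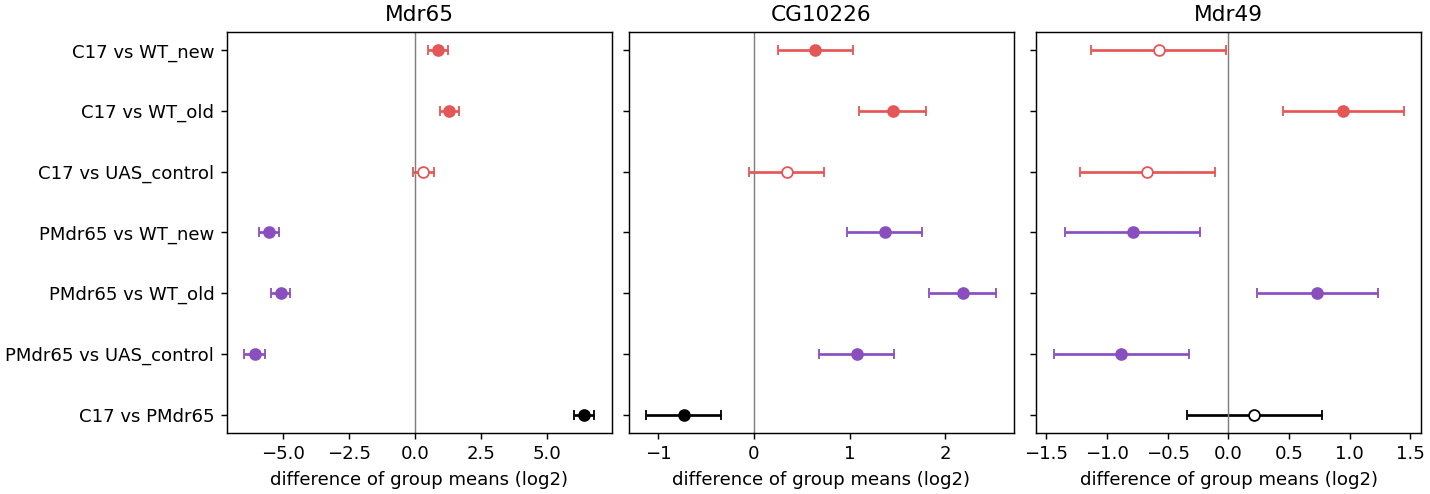
Difference of group means (log2) for Mdr65, CG10226 and Mdr49 in 7 limma comparisons, each as first group minus second, with the 95% confidence interval as the bar; filled points had an adjusted p under 0.05 and open points did not. For Mdr49 the differences of both mutants are negative against WT_new and UAS_control and positive against WT_old, and the 3 horizontal axes differ.

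In PMdr65 Mdr49 was called lower than WT_new (difference -0.79, SE 0.26; limma, adjusted p = 0.0251, with 17.6% of probe sets called lower) and lower than UAS_control (difference -0.88, SE 0.26; limma, adjusted p = 0.0152, with 16.5% called lower), and higher than WT_old (difference 0.73, SE 0.23; limma, adjusted p = 0.0288). In C17 the corresponding differences were -0.58 (limma, adjusted p = 0.0906), -0.67 (limma, adjusted p = 0.051) and 0.95 (limma, adjusted p = 0.00979). The PMdr65 calls rested on few arrays. The call against WT_new was lost without WT_new array 1 or 2 or PMdr65 array 2 or 3, that against UAS_control without PMdr65 array 2 (limma, adjusted p = 0.0502) or UAS_control array 1 (adjusted p = 0.0717), and that against WT_old without WT_old array 1 or 5 or any single PMdr65 array. The C17 call against WT_old was lost without C17 array 2 (limma, adjusted p = 0.0513), and C17 was called below UAS_control without WT_new array 3, WT_old array 1 or 3, or UAS_control array 2 (adjusted p = 0.0148 to 0.045). Against the pooled control arrays the differences of -0.12 in PMdr65 and 0.09 in C17 averaged over opposite directions (exact two-sided permutation test, p = 0.82 and p = 0.87, both 0.87 adjusted), and do not show that the groups were alike. The mutants differed from each other by 0.21 for C17 minus PMdr65, with a 95% confidence interval from -0.34 to 0.77 (limma, adjusted p = 0.791).

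The gap between the wild type sets was larger for Mdr49 than either mutant's difference from a control group. WT_old was lower than WT_new by a difference of -1.52 (SE 0.23; limma, adjusted p = 0.000138), the change ranked 124 among falls in this comparison, while UAS_control and WT_new differed by 0.09 with a 95% confidence interval from -0.47 to 0.65. All 3 genes were called lower in WT_old than in WT_new, as were 17.1% of all probe sets, though the Mdr65 call was lost without certain single arrays. All 3 were also called higher in UAS_control than in WT_old, as were 22.2% of all probe sets. The fat body marker mean was also lowest in WT_old, and over the 17 arrays, which share group differences, it correlated with Mdr49 at r = 0.71, with CG10226 at r = 0.66 and with Mdr65 at r = -0.13. Over the 11 control arrays, without the Mdr65 null, these values were 0.78, 0.78 and 0.69. Other lists correlated to a like degree over the 17 arrays, among them the neuronal markers at r = -0.69 with Mdr49 and -0.74 with CG10226. The part of other tissues in these levels was not tested. In PMdr65, where CG10226 rose, 1 of the 5 fat body markers was called higher and 1 lower against WT_new (median -0.55, beside 23.9% and 17.6% of all probe sets). Against UAS_control 1 was higher and 2 lower (median -0.70, beside 23.0% and 16.5%), and against WT_old 4 were higher and 0 lower (median 3.38, beside 13.3% and 15.6%). Lsp2 was the 1 marker called higher against all 3 control groups, by 2.27 to 4.23, as were 5.87% of all genes. The fat body means overlapped between PMdr65 (9.72 to 11.15), WT_new (9.86 to 11.29) and UAS_control (10.13 to 11.46).

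Mdr65 and CG10226 varied together from array to array outside the Mdr65 null. Over the 14 arrays other than PMdr65, which share their group structure and a normalization, Pearson's r was 0.96 and Spearman's rho 0.97. CG10226 ranked 3 among 8937 genes by its r with Mdr65, after Cyp9f2, a cytochrome P450 gene (r = 0.97), and Gal, a beta-galactosidase gene (r = 0.97), and before CG15209 (r = 0.96). The relation was also seen after group means were removed, with r = 0.89 and rho = 0.90 between the deviations of the same 14 arrays. WT_old array 1 was the lowest control array for all 3 genes, and WT_new array 3 was the lowest of its group for all 3. Mdr49 followed CG10226 over the 11 control arrays (r = 0.96, rho = 0.95), and the 6 mutant arrays had more CG10226 signal than control arrays of like Mdr49 signal.

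**Figure D3:**
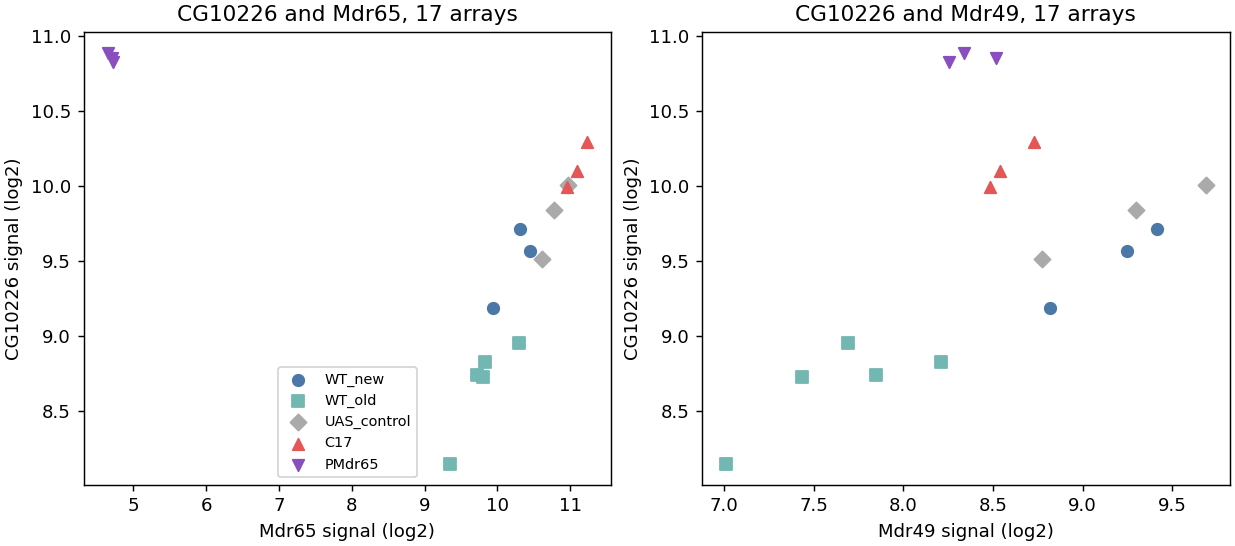
Signals (log2) of CG10226 against Mdr65 (left) and against Mdr49 (right); each symbol is 1 of 17 arrays, marked by group. On the left the 14 arrays other than PMdr65 rise together and the 3 PMdr65 arrays stand apart at low Mdr65 and high CG10226, and on the right both mutants lie above the band of the control arrays.

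Over all 17 arrays the 4 genes most like CG10226 by Pearson's r were cv-d (r = 0.98), pdgy (r = 0.97), CG33296 (r = 0.96) and CG4301 (r = 0.96). The gene cv-d encodes a lipoprotein of the vitellogenin family, and pdgy an acyl-CoA synthetase. All 4 had their highest mean in PMdr65, their next in C17 and their lowest in WT_old. For cv-d the means were 9.45 ± 0.08 (SD, n = 3) in PMdr65, 9.00 ± 0.15 (n = 3) in C17, 8.62 ± 0.06 in UAS_control, 8.39 ± 0.06 in WT_new and 7.56 ± 0.23 (n = 5) in WT_old. For Mdr65 over 17 arrays they were CG12560 (r = 0.92), Ctr9 (r = 0.90), which encodes a subunit of the Paf1 transcription elongation complex, the odorant binding protein gene Obp49a (r = 0.89) and the dehydrogenase gene Dhrs4 (r = 0.89). These genes were lowest in PMdr65, where Ctr9 stood at 9.05 ± 0.02 (n = 3), against 9.81 to 10.70 in the other group means. For Mdr49 they were CG4462 (r = 0.98), CG17026 (r = 0.94), the dipeptidase gene Dip-B (r = 0.94) and elm (r = 0.93), each lowest in WT_old. The genes of all 3 sets were picked by r over these same arrays, so their shared group orders follow from the choice.

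The genes on either side were examined because CG10226 and Mdr65 are neighbours. Of the 10 measured genes nearest to CG10226 and Mdr65, 5 on each side, 0 were called in 1 direction against all 3 control groups in PMdr65 or in C17, also at an unadjusted p under 0.05 (limma). With 5.87% of all genes higher and 3.18% lower in PMdr65, and 4.37% and 2.27% in C17, 0 of 10 is near the background and is no result about these neighbours. On the side of CG10226 these were BG642312, CG13299, LanA, which encodes a laminin chain, CG8219 and Tnpo, a nuclear import receptor gene. BG642312, the nearest of them, was dim, with 2.92 ± 0.08 (SD, n = 3) in PMdr65 and control means of 2.63 to 2.76. LanA was 1.33 higher in PMdr65 than in WT_old (limma, adjusted p = 0.00511). It differed by 0.01 from WT_new and by -0.34 from UAS_control, neither of them called. Of the 10 genes, 1 was called higher and 1 lower in PMdr65 than in WT_new (beside 23.9% and 17.6% of all probe sets). Against UAS_control 3 were higher and 1 lower (beside 23.0% and 16.5%). In both comparisons Tnpo was higher (0.23 and 0.36) and CG13299 lower (-0.64 and -0.61; limma, highest adjusted p = 0.0142).

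Beyond Mdr65 lay Best2, a bestrophin channel gene, the odorant receptor genes Or65a, Or65b and Or65c, and CG13300. Best2 stood at 3.93 ± 0.30 (SD, n = 3) in PMdr65 and between 3.06 and 5.16 in the control means, with changes of -1.23 to 0.87 that went both ways. CG13300 differed in PMdr65 from the control groups by -0.07 to 0.27, and was called only against UAS_control (higher; limma, adjusted p = 0.00656). Of the 10 genes around Mdr49, 0 were called against all 3 control groups in either mutant, also at an unadjusted p under 0.05 (limma), which is likewise near the share of all genes (5.87% higher and 3.18% lower in PMdr65, 4.37% and 2.27% in C17). Drl-2, a receptor tyrosine kinase gene, was 0.27 higher in PMdr65 than in UAS_control (limma, adjusted p = 0.0374) and differed by -0.23 from WT_old (not called). In C17 it was 0.34 higher than in UAS_control (limma, adjusted p = 0.00934). CG3955 was called lower in PMdr65 than in WT_new (-0.23) and WT_old (-0.18; limma, highest adjusted p = 0.0347).

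**Figure D4:**
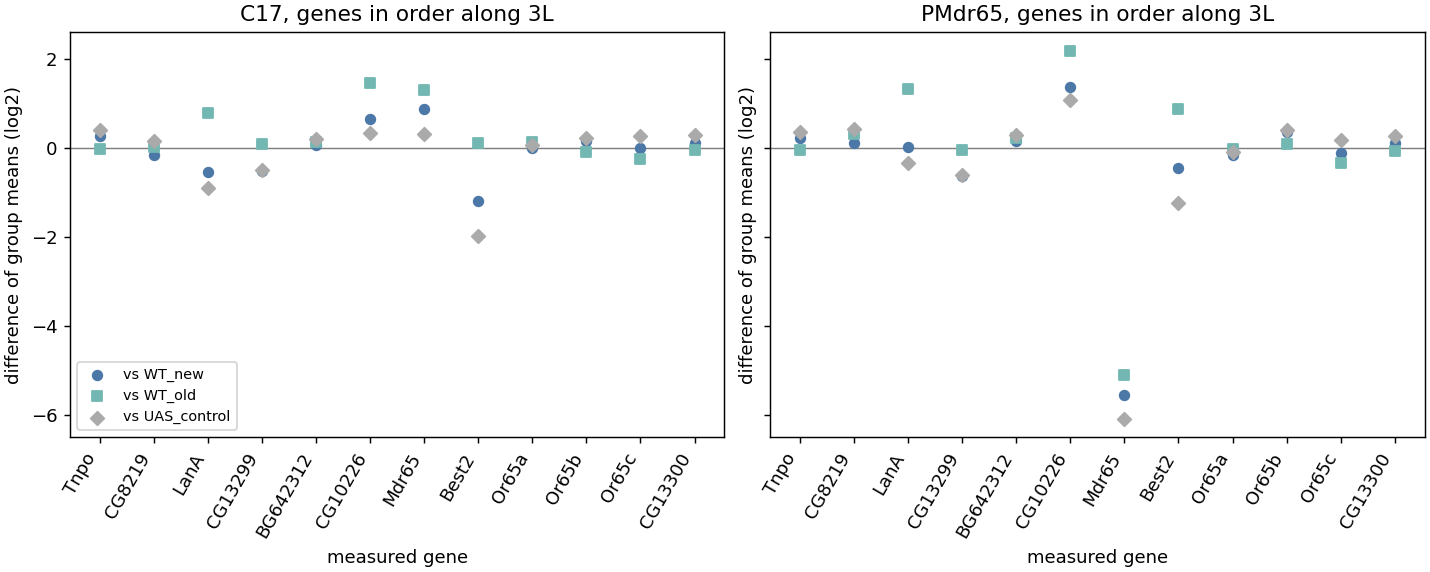
Difference of group means (log2), C17 (left) or PMdr65 (right) minus each of the 3 control groups, for CG10226, Mdr65 and the 5 measured genes on either side in their order along chromosome arm 3L; the symbol marks the control group. In PMdr65, CG10226 is above 0 and Mdr65 below 0 against all 3 groups, and the 10 other genes were not called in 1 direction against all 3.

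Few of the other ABC transporter genes were called in either mutant, as was so for all genes. Of 51 listed, 33 were measured, and Mdr50, a further full-length ABCB gene, was not analysed here. Of these 33, 2 rose and 0 fell in PMdr65 against all 3 control groups, a share of 6.06% beside 5.87% of all genes higher and 3.18% lower, and 3 rose and 0 fell in C17, or 9.09% beside 4.37% higher and 2.27% lower (limma; 0 fell in either mutant at an unadjusted p under 0.05 too). Between the mutants 0 of 33 were called, and 0 at an unadjusted p under 0.05 (limma), beside 3.98% of all probe sets higher and 3.07% lower, with a median difference of -0.0017 beside 0.0067 over all genes. The list median in PMdr65 was 0.17 against WT_new, 0.10 against WT_old and -0.04 against UAS_control, beside 0.0065, -3e-04 and 0.0095 over all genes.

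The shorter ABCB transporters, which work as pairs and are known mainly from mitochondria, had 3 of 4 members measured, and 0 were called against all 3 control groups in either mutant, also at an unadjusted p under 0.05 (limma). That is near the share of all genes (5.87% higher and 3.18% lower in PMdr65, 4.37% and 2.27% in C17) and is no result about them. Hmt-1, the fly relative of a yeast heavy metal tolerance transporter, stood at 8.73 ± 0.05 (SD, n = 3) in PMdr65 and 8.67 ± 0.05 in C17, between 8.47 in WT_old and 9.13 in UAS_control. In PMdr65 it was called higher than WT_old (0.26) and lower than WT_new (-0.38) and UAS_control (-0.40; limma, highest adjusted p = 0.0329), the same split as Mdr49. CG1824 differed from the control groups by -0.46 to 0.04 in PMdr65. It was called lower there than WT_new (-0.42) and UAS_control (-0.46; limma, highest adjusted p = 0.00477), where 17.6% and 16.5% of all probe sets were called lower. In C17, Hmt-1 and CG1824 were also called lower than both groups (limma, highest adjusted p = 0.00201, beside 15.8% and 16.9% of all probe sets). CG3156 differed by -0.09 to -0.03 in PMdr65 and was not called.

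The members that rose were Abca3 and Atet in both mutants and MRP in C17. Abca3, of the lipid transporter subfamily ABCA, reached 9.35 ± 0.07 (SD, n = 3) in PMdr65 and 9.34 ± 0.08 in C17, from control means of 8.72 to 9.13 (limma, highest adjusted p = 0.0236 over both mutants). Atet, an ABCG gene whose product is known to release the hormone ecdysone from gland cells, stood at 11.30 ± 0.05 and 11.33 ± 0.01 (n = 3), 0.25 to 0.55 above the control groups (limma, highest adjusted p = 0.0353). MRP, a multidrug resistance protein gene of the ABCC subfamily, rose by 0.19 to 0.38 in C17 (limma, highest adjusted p = 0.0437). These counts rested on single arrays. In PMdr65, 0 rose without PMdr65 array 2 and 1 rose without PMdr65 array 3, UAS_control array 1 or UAS_control array 3. In C17, 0 rose without C17 array 2 and 1 rose after dropping array 1 or 3 of C17 or array 3 of WT_old. In size, the rise of CG10226 in PMdr65 against its nearest control group, 1.07, was above those of Abca3 (0.23) and Atet (0.25), a comparison of estimates that was not tested.

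**Figure D5:**
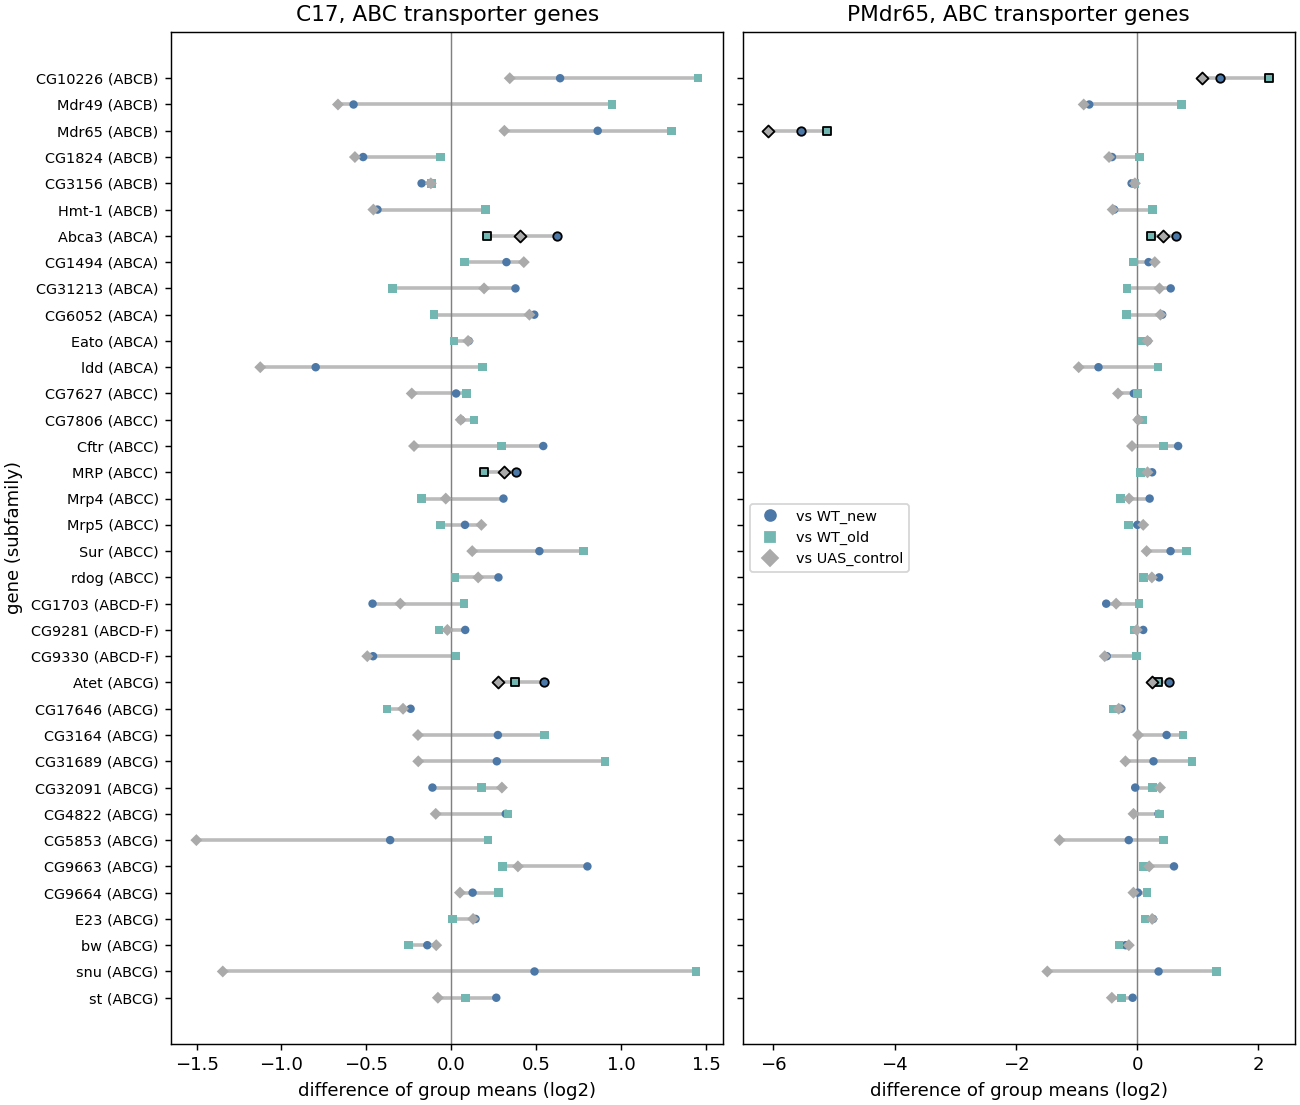
Difference of group means (log2), C17 (left) or PMdr65 (right) minus each of the 3 control groups, for 36 measured ABC transporter genes ordered by subfamily; the grey line joins the 3 values of a gene and black outlines mark a call in 1 direction against all 3. In PMdr65 the outlined genes are CG10226, Mdr65, Abca3 and Atet, in C17 they are Abca3, MRP and Atet, and the horizontal axes differ.

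Several markers of the surface glia, the cells in which Mdr65 acts, were higher in PMdr65, as CG10226 was. Of 11 markers listed and measured, a list made with earlier results of these arrays known and so not independent of them, 7 rose and 1, Mdr65 itself, fell against all 3 control groups in PMdr65. The 7 were Gli (by 4.02 to 5.04), moody (by 1.37 to 1.62), ltl, Lac, PRL-1, LpR1 and LpR2 (by 0.19 to 1.30). CG3168, Tret1-1 and Indy were not called against all 3 groups in PMdr65. The median difference over the list was 0.70 against WT_new, 0.83 against WT_old and 0.40 against UAS_control. In C17, 5 rose and 1, moody, fell. Of a further list of 7 glial markers, 2 rose and 0 fell in PMdr65, Gli and moody, which both lists share. In C17 Gli rose and moody fell. The same rule called 5.87% of all genes higher and 3.18% lower in PMdr65, and 4.37% higher and 2.27% lower in C17. The mean of the surface glia markers other than Mdr65 was 10.34 to 10.38 on the PMdr65 arrays, where Gli and moody had the largest rises. It was 9.09 to 9.37 in the wild type sets and 9.43 to 9.62 in UAS_control. In C17 it was 9.13 to 9.24, where moody, at 2.17 ± 0.11 (n = 3), lowered it. The marker moody stood at 11.39 ± 0.04 in PMdr65, beyond its control range of 9.65 to 10.20. Over the 17 arrays, which share group differences, this mean correlated at r = 0.71 with CG10226, at 0.04 with Mdr49 and at -0.91 with Mdr65. The last value includes the 3 PMdr65 arrays, where Mdr65 was the targeted gene and dim. All of these values include the C17 arrays, where the loss of moody lowered the mean. A mean without moody was not computed. Over the 11 control arrays this mean correlated at r = 0.56 with CG10226, at 0.42 with Mdr49 and at 0.69 with Mdr65. There CG10226 correlated with the other lists from r = 0.52 (glial markers) to 0.79 (1 gut marker), except the neuronal markers at -0.82. The part of these markers in the CG10226 signal was not tested.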

How the data were processed

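The values deposited by the authors are log2 signals, which the file headers describe as RMA output. The submitters' processing notes list affy, RMA and limma, without versions in the sources used here. RMA pulls arrays to a common distribution and leaves dim signals with compressed folds. The series matrix (13290 probe sets, equal to the unfiltered table to within 0.005) was used without further normalization. A group-means model of the 17 arrays was run in limma 3.58.1 under R 4.3.3 (12 residual and 2.93 prior degrees of freedom), with 10 contrasts and Benjamini-Hochberg adjustment within each over all probe sets. Gene symbols came from the platform annotation and gene order from the Release 6 annotation, in which 8887 of 8938 genes were placed. A gene with several probe sets was represented by the brightest. The model was tested on simulated data.

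Named genes were the 3 transporters, other ABCB genes, other ABC genes called against all 3 control groups (up to 8), 5 measured neighbours on each side, the 4 genes of highest Pearson's r with each transporter, and moody. The genes and lists were chosen with earlier results of these data known. Replicate numbers did not pair the arrays: deviations of arrays with the same number correlated between -0.47 and 0.41. The fits were repeated on the unfiltered table, after a further quantile normalization, after equal array medians, with a trended and robust prior, with only the compared groups, with the replicate number as a block, without each array and, added later, without 2 arrays with high eye and fat body transcripts (WT_new array 3 and UAS_control array 2).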

Additional observations from a re-analysis of the deposited data

Results flagged for a closer look

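For 3 of 25 genes tested, 1 of the 5 WT_old arrays stood apart from the other 4, with a Dixon gap-to-range value above 0.71, which chance exceeds in about 1 of 20 groups. CG10226 was at 8.14 on WT_old array 1, and the next lowest array was at 8.72. On the same array the cytochrome P450 gene Cyp9f2 was at 10.16, below a next lowest value of 10.51. CG1824, an ABCB transporter gene of the shorter kind, was at 7.26 on WT_old array 4, and its nearest array was at 7.57. Leaving out WT_old array 1 changed no call of CG10226 in either mutant against the control groups.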

How the results depend on the processing

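For the 3 transporter genes, 30 differences were recomputed under 24 alternatives, and 673 of 720 values kept their direction and their side of the threshold, while 34 lost the call, 11 gained it and 2 changed sign; 19 of the 30 differences never changed. The rise of CG10226 and the fall of Mdr65 in PMdr65 against each control group, and the rise of Mdr65 in C17 over each wild type set, were among the 19. With a further quantile normalization Mdr49 in C17 fell below UAS_control (-0.69, limma adjusted p = 0.0484) and 1 other ABC gene rose in PMdr65. With only the compared groups fitted, Mdr49 in C17 was called below WT_new (-0.58, adjusted p = 0.0286), Mdr65 was not called between WT_old and WT_new (-0.43, adjusted p = 0.102) and 1 ABC gene rose in PMdr65. An alternative chosen after seeing the data, without array 3 of WT_new and array 2 of UAS_control, also called Mdr49 in C17 below WT_new (-0.75, limma adjusted p = 0.0301) and UAS_control (-0.91, limma adjusted p = 0.0108).

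Arrays share replicate numbers across groups, but these did not pair them (WT_old arrays 4 and 5 have no partner). With the replicate number as a block, the calls were lost for CG10226 between the mutants (-0.73, limma adjusted p = 0.0531) and for Mdr49 in C17 against WT_old (0.90, 0.0737), in PMdr65 against WT_new (-0.79, 0.0587) and in PMdr65 against WT_old (0.68, 0.132). The block called Mdr65 higher in UAS_control than in WT_new (0.55, limma adjusted p = 0.0433), left 1 other ABC gene higher in C17 and changed no other call.

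Leaving out 1 array at a time gave these ranges of log2 differences. For Mdr65 they were -0.58 to -0.32 for WT_old minus WT_new and 0.40 to 0.66 for UAS_control minus WT_new. For CG10226 they were 0.49 to 0.75 for C17 minus WT_new and -0.81 to -0.66 for C17 minus PMdr65. For Mdr49 in C17 they were 0.79 to 1.09 against WT_old and -0.91 to -0.45 against UAS_control. For Mdr49 in PMdr65 they were -0.96 to -0.66 against WT_new, 0.58 to 0.88 against WT_old and -1.12 to -0.66 against UAS_control. The Mdr49 difference of UAS_control minus WT_new ranged from -0.13 to 0.33, with reversed sign without UAS_control array 1 (-0.13) or WT_new array 3 (-0.08). The number of other ABC genes ranged from 0 to 3 higher in C17, from 0 to 2 higher in PMdr65 and from 0 to 1 lower in PMdr65. The causes of these changes were not tested. Dim signals, as for Mdr65 in PMdr65 and for Best2 and BG642312, limit what their differences can show.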
